A study of Homo sapiens with 6 samples.

Results

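The genes described here encode the subunits of acetylcholine and glutamate receptors in SHSY5Y (SH-SY5Y) cells, a human neuroblastoma cell line whose cells resemble sympathetic neurons. They were all genes with a CHRNA, CHRNB, CHRM, GRIA, GRIN, GRIK or GRM symbol and a number that were named alone by a probe set of the array. The rule found 39 of the 18132 genes measured, read by 91 of 49293 probe sets, and each gene is represented by the probe set with the highest mean over all arrays. They comprised 11 nicotinic, 5 muscarinic, 16 ionotropic glutamate and 7 metabotropic glutamate receptor genes. CHRNA7 was named on 4 probe sets only together with CHRFAM7A, and it and CHRNA4 were not analysed here.

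Endosulfan is an organochlorine insecticide known to block GABA-gated chloride channels. Cells were exposed to endosulfan at 3 µM for 24 h (3 arrays) or belonged to the control (3 arrays), and both groups were the same cell line in MEM and F12 medium with serum. The labels call the arrays biological replicates but name no culture, passage or day, and they do not say what the control cells received, so p-values measure the spread between these arrays. The comparison addresses which transcripts differ after exposure. The line is a tumour line grown without synaptic partners, and on RNA from whole cultures, fewer cells of a type and less RNA per cell cannot be told apart.

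Nicotinic receptors are pentameric ion channels that open when acetylcholine binds, and in sympathetic neurons they carry fast transmission from preganglionic fibres. Muscarinic receptors bind the same transmitter but signal through G proteins. AMPA, NMDA and kainate receptors are tetrameric ion channels gated by glutamate, and the metabotropic receptors, encoded by the GRM genes, signal through G proteins.

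Promoter sequence is shown for 4 of the genes. CHRNA3 and GRIA2 had the smallest unadjusted p values of the subunits, CHRNB4 is the neighbour of CHRNA3 in a nicotinic gene cluster on chromosome 15, and CHRNB2 encodes a beta partner subunit that was bright on the array. Each sequence holds the 250 bases before the most upstream listed start in RefSeq (GRCh38.p14), 5′ to 3′ on the gene's strand. CHRNA3 lies at chr15:78620997-78621246 on the minus strand and CHRNB4 at chr15:78641211-78641460 on the minus strand. CHRNB2 lies at chr1:154567528-154567777 and GRIA2 at chr4:157219870-157220119, both on the plus strand. Capitals mark matches on either strand to GGGCGG (GC box), CANNTG (E-box) or GCGNGGGCG (the motif of the EGR factors).
CHRNA3: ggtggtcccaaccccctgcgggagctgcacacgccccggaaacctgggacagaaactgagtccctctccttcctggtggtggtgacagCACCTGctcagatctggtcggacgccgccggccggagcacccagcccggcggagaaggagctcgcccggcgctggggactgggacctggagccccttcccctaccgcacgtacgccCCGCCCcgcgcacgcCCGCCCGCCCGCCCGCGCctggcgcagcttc
CHRNB4: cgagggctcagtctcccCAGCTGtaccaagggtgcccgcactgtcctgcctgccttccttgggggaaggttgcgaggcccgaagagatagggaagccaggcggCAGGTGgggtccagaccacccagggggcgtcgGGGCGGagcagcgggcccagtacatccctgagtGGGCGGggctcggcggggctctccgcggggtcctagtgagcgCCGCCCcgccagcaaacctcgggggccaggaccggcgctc
CHRNB2: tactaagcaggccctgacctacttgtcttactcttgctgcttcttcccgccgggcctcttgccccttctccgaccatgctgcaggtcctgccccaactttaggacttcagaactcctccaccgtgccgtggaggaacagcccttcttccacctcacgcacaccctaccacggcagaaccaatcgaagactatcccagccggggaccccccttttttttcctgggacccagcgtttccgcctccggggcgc
GRIA2: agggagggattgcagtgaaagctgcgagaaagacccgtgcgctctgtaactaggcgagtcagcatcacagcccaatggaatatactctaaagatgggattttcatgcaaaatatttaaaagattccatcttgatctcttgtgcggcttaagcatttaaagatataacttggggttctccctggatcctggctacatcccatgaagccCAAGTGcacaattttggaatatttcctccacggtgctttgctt

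The CHRNA3 window held 4 GC boxes, 1 E-box and 1 EGR motif, counting overlapping matches, of which the EGR match shares bases with a GC box. The CHRNB4 window held 3 GC boxes and 2 E-boxes. The GRIA2 window held 1 E-box and no GC box, and the CHRNB2 window held no match to these motifs. Of all 35116 promoter windows of this length, 42.6% held a GC box, 61.8% an E-box and 8.41% an EGR motif. Among the 47 windows found for 31 of the 39 subunits the shares were 44.7%, 53.2% and 8.51%. A match is a run of letters, and no binding was measured here.

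The arrays were of even overall level, with medians between 4.89 and 4.94 on the log2 scale and correlations of 0.964 to 0.995 between the 15 pairs of arrays. The bacterial poly-A transcripts spiked into the RNA were uneven, with means of 7.90, 7.82 and 8.90 in endosulfan 1, 2 and 3 against 6.19, 7.83 and 5.84 in control 1, 2 and 3 (exact permutation p = 0.2, two-sided). With 3 arrays against 3, the smallest such p is 0.1. The sympathetic markers used as a check of the cell line were bright: 12 of 14 had a probe set, with levels between 7.72 and 13.2, among them the catecholamine enzymes TH and DBH. The mean of these 12 was 10.6, 10.7 and 10.7 in endosulfan 1, 2 and 3 against 11.1, 10.9 and 11.0 in control 1, 2 and 3, so every endosulfan array lay below every control array (exact permutation p = 0.1). The markers did not go one way: 5 of 12 had a log2 fold change above 0, among them PHOX2A (0.27), DBH (0.14) and TH (0.13), and 7 lay below 0. Before adjustment 5 of 12 passed 0.05 in limma, all lower, against 17.1% of all genes, and these were ISL1 (-1.33), ELAVL4 (-1.09), STMN2 (-1.05), MYCN (-0.48) and GATA3 (-0.35). The GAPDH 3′ probe set minus the 5′ one, a sign of RNA quality, was 0.887, 0.818 and 0.819 in endosulfan 1, 2 and 3 against 0.807, 0.743 and 0.696 in control 1, 2 and 3 (log2), higher in every endosulfan array (exact permutation p = 0.1). Of 10 measured mesenchymal or Schwann-like markers, 2 lay above the level of 6.51 used below, TWIST1 at 12.1 and SOX10 at 6.64. The mean level of the 10 was 5.57 to 5.77 in endosulfan and 5.62 to 5.68 in control arrays.

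Few receptor subunits were bright. Without scanner data no detection call could be made, so levels were set beside 59 measured genes restricted to other organs, such as liver, muscle and blood proteins. The 95th percentile of these genes was 6.51 (log2), and 6 of 39 subunits lay above it, against 39.4% of all genes. These were CHRNA3, CHRNB2 and CHRNB1 among the nicotinic genes, GRIN1 of the NMDA, GRIK5 of the kainate and GRM4 of the metabotropic class. The nearest subunits on either side of this level were GRM4, at 6.80, and GRM2, at 6.12. The 33 other subunits had levels between 2.82 and 6.12, and 29 of the 39 lay below the median of all genes, 5.81. Brightness does not order transcripts by abundance, since probe sets differ in affinity: the array's 23 background probe sets, which match no human transcript, had levels between 2.20 and 10.4 that differ with their content of G and C bases. No source used here gives the base content of the receptor probe sets, so its part in their levels was not tested.

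**Figure D1:**
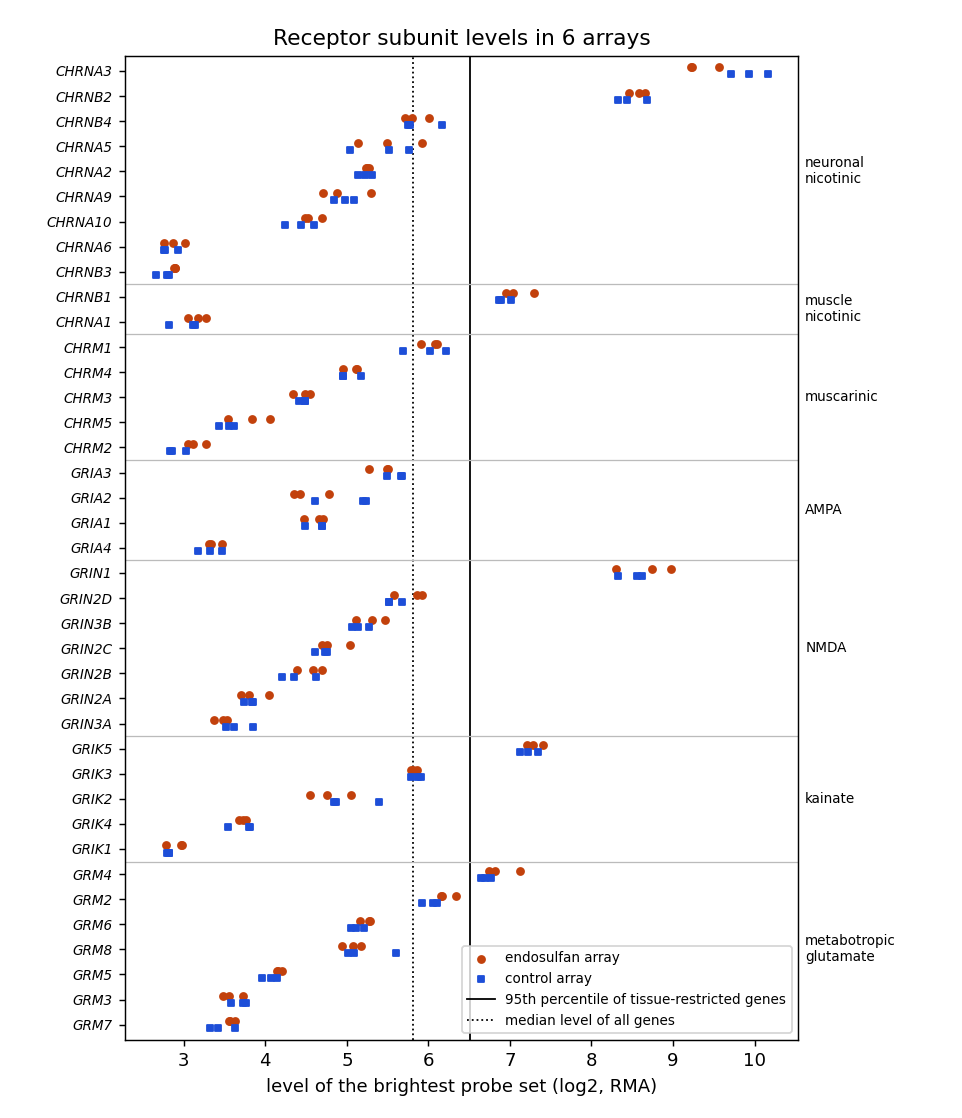
Levels of the 39 receptor subunits on a log2 RMA scale, by class, with 3 endosulfan arrays (circles) and 3 control arrays (squares) for each gene. The solid line marks the 95th percentile of tissue-restricted genes, 6.51, which 6 subunits exceed, and the dotted line the median of all genes, 5.81.

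No receptor subunit differed between endosulfan and control arrays past the threshold. With limma and Benjamini-Hochberg adjustment over all 18132 genes, 0 of 39 subunits had an adjusted p below 0.05, where 0.00552% of all genes, that is 1 gene, did. The smallest adjusted p among the subunits was 0.197, for CHRNA3. At an unadjusted p below 0.05 there were 0 higher and 2 lower subunits (5.13%), CHRNA3 and GRIA2, against 17.1% of all genes (6.64% higher and 10.5% lower). The groups did not overlap in 4 of 39 subunits (10.3%), against 22.6% of all genes (12.4% higher and 10.2% lower): CHRNA3 was lower in every endosulfan array, and GRM2, CHRM2 and CHRNB3 were higher in every one. Both shares differed with level. Of all genes, 9.56% below the median level and 24.7% above it had an unadjusted p below 0.05 in limma. Among subunits these were 1 of 29 and 1 of 10. The groups did not overlap in 17.5% and 27.7% of all genes, and in 2 of 29 and 2 of 10 subunits. The median log2 fold change (endosulfan minus control) was 0.07 over the subunits and 0.05 over all genes, and 27 of 39 subunits lay above 0, against 60.2% of all genes. The 95% intervals of all 39 log2 fold changes lay within 1 on either side of 0. So did those of 16040 of all 18132 genes, and of 8669 of the 9066 genes below the median level.

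**Figure D2:**
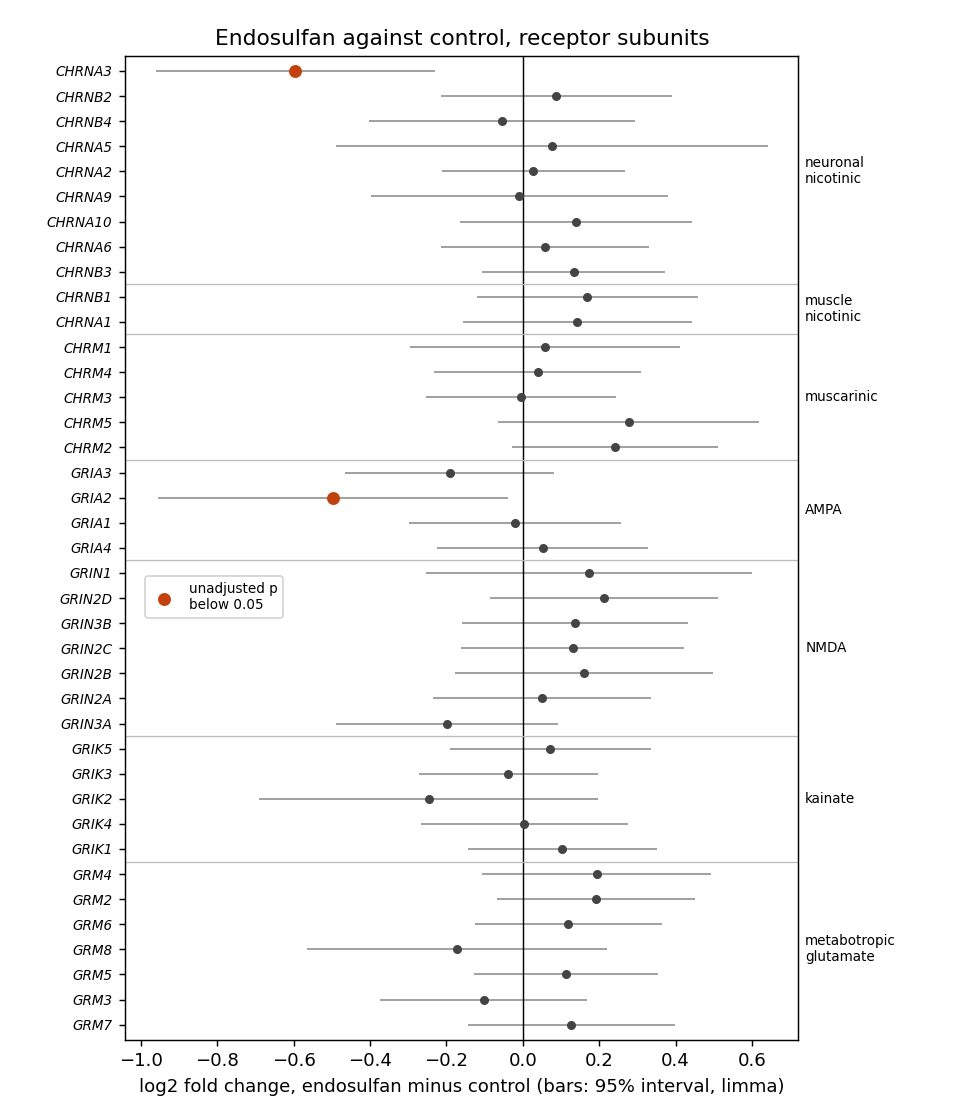
Log2 fold change of each receptor subunit, endosulfan minus control, with its 95% interval from limma (3 arrays against 3), by class. The intervals of CHRNA3 and GRIA2 exclude 0 before adjustment, and no subunit passed after adjustment over all genes.

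CHRNA3, the ligand-binding alpha subunit of the nicotinic receptor of autonomic ganglia, had the lowest p of the family. Its brightest probe set was at 9.23, 9.57 and 9.22 in endosulfan 1, 2 and 3, against 10.2, 9.71 and 9.93 in control 1, 2 and 3 (log2). Every endosulfan array lay below every control array, with endosulfan 2 and control 2 closest to each other. The means were 9.34 ± 0.20 in endosulfan and 9.93 ± 0.23 in control arrays (SD, n = 3 each), and the log2 fold change was -0.60 ± 0.16 (SE; 95% interval -0.96 to -0.23), or 1.51-fold lower. This did not pass with limma (unadjusted p = 0.00577, Benjamini-Hochberg adjusted p = 0.197).

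The other probe sets of CHRNA3 were not all alike. The second was at 7.24, 7.17 and 6.97 in endosulfan arrays against 7.43, 7.39 and 7.38 in control arrays, a log2 fold change of -0.27. The third was at 6.51, 6.14 and 6.54 in endosulfan arrays against 6.69, 6.83 and 6.69 in control arrays, a log2 fold change of -0.34. Both thus had all endosulfan arrays below all control arrays. The identifier of the second carries the suffix x, given to sets with probes that can match other transcripts. Whether other transcripts contribute to its signal was not tested. The dimmest went the other way, at 4.47, 4.49 and 4.51 in endosulfan arrays against 4.23, 4.19 and 4.28 in control arrays, a log2 fold change of 0.26. The limma and Benjamini-Hochberg adjusted p over all probe sets was between 0.215 and 0.297 for the 4 sets. With the mean of the 4 sets, the log2 fold change of CHRNA3 was -0.24 (limma, Benjamini-Hochberg adjusted p = 0.248). CHRNA3 and its neighbour CHRNA5 overlap at their ends on the genome, and no source used here says which of these probe sets lie in the overlap.

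Between the groups, CHRNA3 was lower where the spike-ins were on average higher, and the 2 arrays with the lowest spike-ins, control 1 and 3, were those with the highest CHRNA3. Within the endosulfan arrays the order was inverse too. Endosulfan 2, 1 and 3 had spike-in means of 7.82, 7.90 and 8.90 and CHRNA3 at 9.57, 9.23 and 9.22. Of the control arrays, control 2 had the highest spike-ins, at 7.83, and the lowest CHRNA3, at 9.71. Control 3 had lower spike-ins than control 1, at 5.84 and 6.19, but not the higher CHRNA3, at 9.93 and 10.2. Among the 3 arrays of nearly equal spike-in level, CHRNA3 was at 9.23 and 9.57 in endosulfan 1 and 2 against 9.71 in control 2. When the spike-in mean was added to the model, the log2 fold change was -0.33, with an unadjusted p of 0.178 from limma. In that model 1.66% of all genes had an unadjusted p below 0.05, against 17.1% without the spike-in mean. Spike-in level was on average higher in endosulfan arrays, so its part in the CHRNA3 difference cannot be told apart from that of exposure. The GAPDH 3′ minus 5′ difference, higher in every endosulfan array, and the 5 sympathetic markers named above as lower also separated the groups as CHRNA3 did. The part of the RNA quality sign and of these markers in the CHRNA3 difference was not tested.

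**Figure D3:**
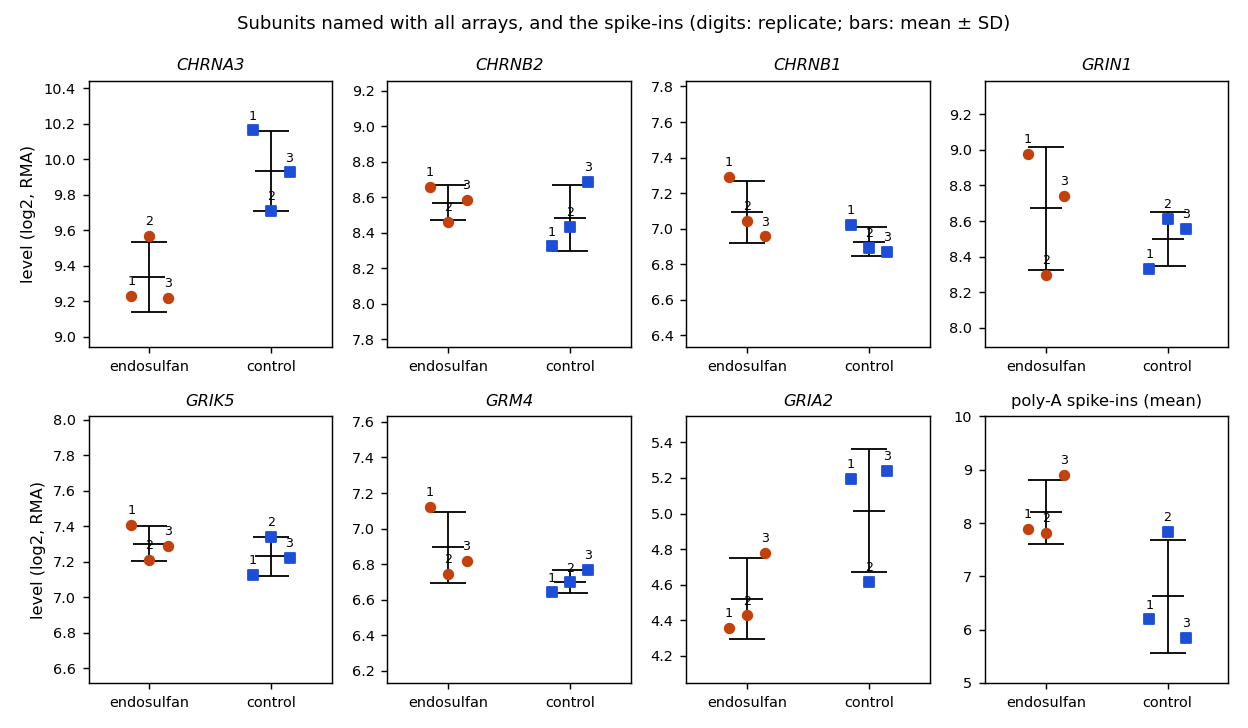
Log2 RMA levels of 7 subunits and the mean of 12 poly-A spike-in probe sets, endosulfan left and control right. The 7 are those that were bright or had an unadjusted p below 0.05 in limma. Points carry the replicate number, and bars show the mean ± SD. Gene panels span equal ranges with offsets of their own, and the spike-in panel has a wider scale. CHRNA3 is lower in each endosulfan array, and the groups overlap in the other 6 genes.

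None of the brightest probe sets of the partners of CHRNA3 in ganglionic receptors passed 0.05 before adjustment. CHRNB2, a beta subunit that pairs with several alpha subunits, was at 8.66, 8.46 and 8.59 in endosulfan arrays against 8.32, 8.43 and 8.69 in control arrays. The groups overlapped, with a log2 fold change of 0.09 (95% interval -0.21 to 0.39, limma adjusted p = 0.740). With 1 array left out the log2 fold change of CHRNB2 lay between 0.0093 (without control 1) and 0.19 (without control 3). CHRNB4, the beta subunit encoded beside CHRNA3, averaged 5.84 ± 0.15 in endosulfan and 5.90 ± 0.23 in control arrays (SD, n = 3 each), and the log2 fold change was -0.05 (95% interval -0.40 to 0.30). Its second, dimmer probe set averaged 5.39 ± 0.04 in endosulfan and 5.13 ± 0.05 in control arrays (SD, n = 3 each), so the sets of this gene differed in sign. CHRNA5, an accessory subunit of the same cluster, averaged 5.52 ± 0.40 and 5.44 ± 0.37 (endosulfan and control, SD, n = 3 each), with a log2 fold change of 0.08 (95% interval -0.49 to 0.64). The difference between CHRNA3 and these genes was itself not tested.

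CHRNB1, the beta subunit of the muscle receptor, was at 7.29, 7.04 and 6.96 in endosulfan arrays against 7.02, 6.89 and 6.87 in control arrays. The groups overlapped, with a log2 fold change of 0.17 (95% interval -0.12 to 0.46) and a limma adjusted p of 0.499, and all 4 of its probe sets lay above 0. Without endosulfan 1 the log2 fold change of CHRNB1 was 0.072. CHRNA1, the muscle alpha subunit that binds acetylcholine, was dim, with a mean of 3.10 over the 6 arrays. The remaining nicotinic genes were CHRNA2 at 5.24, CHRNA9 at 4.97, CHRNA10 at 4.50, CHRNA6 at 2.85 and CHRNB3 at 2.82. CHRNA9 and CHRNA10 form the receptor of cochlear hair cells, and CHRNA6 and CHRNB3 are known from midbrain dopamine neurons. CHRNB3 was at 2.89, 2.90 and 2.89 in endosulfan arrays against 2.66, 2.80 and 2.82 in control arrays. Its groups did not overlap, but at this low level the difference of 0.13 had a limma adjusted p of 0.514.

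The 5 muscarinic receptors had levels between 3.02 and 6.00 and log2 fold changes between -0.01 and 0.28, with 0 at an unadjusted p below 0.05. CHRM1, CHRM3 and CHRM5 couple to Gq and phospholipase C, and CHRM2 and CHRM4 to Gi. CHRM1 was the brightest probe set of these, at 6.11, 5.91 and 6.08 in endosulfan arrays against 5.69, 6.22 and 6.01 in control arrays, with overlapping groups. CHRM3 was at 4.55, 4.35 and 4.49 in endosulfan arrays against 4.49, 4.42 and 4.49 in control arrays, and its groups overlapped too. CHRM2 was at 3.27, 3.05 and 3.12 in endosulfan arrays against 2.83, 2.85 and 3.03 in control arrays. Its groups did not overlap, with a log2 fold change of 0.24 (95% interval -0.03 to 0.51) and a limma adjusted p of 0.327. CHRM5 and CHRM4 had log2 fold changes of 0.28 and 0.04.

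Among AMPA receptor genes GRIA2 had the lowest p. Its subunit makes AMPA channels nearly impermeable to calcium after RNA editing of its pore. It was at 4.35, 4.43 and 4.78 in endosulfan arrays against 5.20, 4.62 and 5.24 in control arrays. The groups overlapped, since control 2 lay below endosulfan 3, and control 2 stood apart from control 1 and 3. The means were 4.52 ± 0.23 in endosulfan and 5.02 ± 0.35 in control arrays (SD, n = 3 each), and the log2 fold change was -0.50 ± 0.20 (SE; 95% interval -0.96 to -0.04). This did not pass with limma (unadjusted p = 0.0373, Benjamini-Hochberg adjusted p = 0.269). Both probe sets were dim, with means of 4.77 and 3.08 over all arrays, and their log2 fold changes lay below 0, at -0.50 and -0.34. With 1 array left out the log2 fold change lay between -0.70 (without control 2, limma adjusted p = 0.0805) and -0.39 (without control 3). In limma the unadjusted p was 0.108 without endosulfan 1, 0.0924 without endosulfan 2, 0.106 without control 1 and 0.129 without control 3. It was 0.0256 without endosulfan 3 and 0.0036 without control 2. Without moderation of the variances, with all arrays, it was 0.108. The log2 fold change was -0.25 when the spike-in mean was added to the model.

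GRIA3 averaged 5.42 ± 0.13 in endosulfan and 5.61 ± 0.10 in control arrays (SD, n = 3 each), with a log2 fold change of -0.19 (95% interval -0.46 to 0.08). GRIA1, whose subunit is inserted at synapses during potentiation, averaged 4.61 and 4.63 in endosulfan and control arrays, and GRIA4 averaged 3.37 and 3.32. None of these 3 genes had an unadjusted p below 0.05.

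GRIN1 encodes the obligatory, glycine-binding subunit of NMDA receptors. Its brightest probe set was at 8.98, 8.30 and 8.74 in endosulfan arrays against 8.33, 8.61 and 8.55 in control arrays. Endosulfan 2 was the lowest of all 6 arrays and endosulfan 1 the highest, so the groups overlapped. The log2 fold change was 0.17 (95% interval -0.25 to 0.60), with a limma adjusted p of 0.633. Without endosulfan 2 it was 0.36, with a limma unadjusted p of 0.0447 and adjusted p of 0.220. Without endosulfan 1 it was 0.021, with a limma adjusted p of 0.976. It was 0.033 when the spike-in mean entered the model. With the mean of the 4 probe sets it was 0.25 (limma, unadjusted p = 0.0387, Benjamini-Hochberg adjusted p = 0.279). The identifier of the brightest probe set carries the suffix x, which Affymetrix gives to sets with probes that can match other transcripts. The other 3 probe sets of GRIN1 were dim, between 4.37 and 4.92. All 4 lay above 0, at 0.17 to 0.34. GRM4, below, was alike in this: its brightest set, also with the suffix x, was at 6.80 and its other 2 were at 3.46 and 4.04. Whether other transcripts contribute to either signal was not tested.

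**Figure D4:**
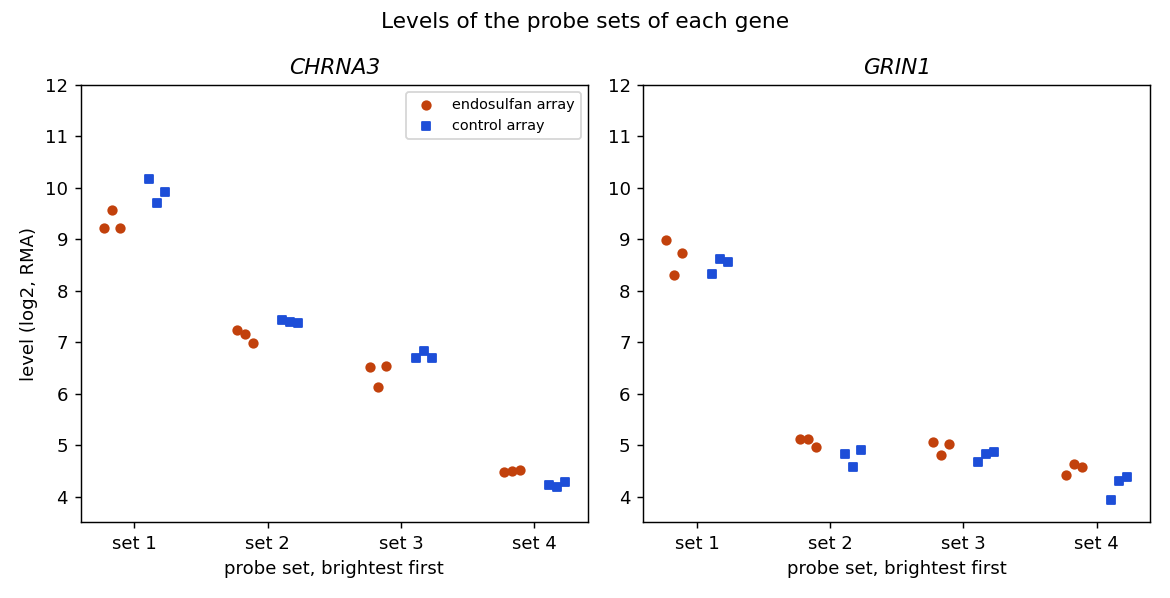
Log2 RMA levels of the 4 probe sets of CHRNA3 and the 4 of GRIN1, brightest first, with endosulfan arrays as circles on the left and control arrays as squares on the right of each set. The first 3 sets of CHRNA3 are lower and the fourth higher in endosulfan arrays, and GRIN1 has 1 bright and 3 dim sets.

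The partners of GRIN1 were dim. The glutamate-binding subunits that set the kinetics of the channel were at 5.68 for GRIN2D, 4.77 for GRIN2C, 4.48 for GRIN2B and 3.83 for GRIN2A (log2, mean of 6 arrays), and the glycine-binding subunits GRIN3B and GRIN3A were at 5.23 and 3.56. GRIN2D, a subunit of the embryonic nervous system, averaged 5.78 ± 0.19 in endosulfan and 5.57 ± 0.09 in control arrays (SD, n = 3 each), and the log2 fold change was 0.21 (95% interval -0.09 to 0.51). GRIN2B was at 4.59, 4.38 and 4.69 in endosulfan arrays against 4.21, 4.35 and 4.63 in control arrays, with overlapping groups. Of the 7 NMDA genes, 6 had a log2 fold change above 0, and GRIN3A, at -0.20, was the exception. The range was from -0.20 to 0.21, the median 0.14, and 0 had an unadjusted p below 0.05.

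GRIK5, a high-affinity kainate subunit that needs a partner such as GRIK2 to form a channel, was at 7.41, 7.21 and 7.29 in endosulfan arrays against 7.13, 7.34 and 7.22 in control arrays. The groups overlapped, with a log2 fold change of 0.07 (95% interval -0.19 to 0.34) and a limma adjusted p of 0.756. With 1 array left out the log2 fold change of GRIK5 lay between 0.020 (without endosulfan 1) and 0.13 (without control 2). The low-affinity subunit GRIK2 was at 5.05, 4.76 and 4.55 in endosulfan arrays against 4.87, 4.84 and 5.39 in control arrays, and GRIK3 averaged 5.82 ± 0.04 in endosulfan and 5.86 ± 0.06 in control arrays (SD, n = 3 each). In GRIK2 control 3 lay above the other 5 arrays, and the 5 probe sets of the gene had log2 fold changes from -0.25 to 0.16. GRIK4, the other high-affinity subunit, was at 3.72 and GRIK1 at 2.86 (mean of 6 arrays), with log2 fold changes of 0.00 and 0.10.

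The 7 metabotropic genes had log2 fold changes between -0.17 and 0.19, and 0 had an unadjusted p below 0.05. GRM4, a Gi-coupled presynaptic receptor, was at 7.12, 6.75 and 6.82 in endosulfan arrays against 6.64, 6.70 and 6.77 in control arrays. Endosulfan 1 lay above the other 5 arrays and the groups overlapped, with a log2 fold change of 0.19 (95% interval -0.11 to 0.49) and a limma adjusted p of 0.461. It was 0.080 without endosulfan 1 and 0.076 when the 3 probe sets of GRM4 were averaged. GRM2, a Gi-coupled receptor of the second group, was at 6.33, 6.17 and 6.16 in endosulfan arrays against 5.92, 6.05 and 6.11 in control arrays. Its groups did not overlap, but the log2 fold change of 0.19 (95% interval -0.07 to 0.45) had a limma adjusted p of 0.398, and its second probe set was at -0.06. GRM5, the receptor of this set that couples to Gq, had 4 probe sets with levels between 2.44 and 4.11. GRM6, the receptor of retinal ON bipolar cells, was at 5.18, GRM8 at 5.15, GRM3 at 3.64 and GRM7 at 3.52.

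Over all 91 probe sets of the subunits, 5 passed 0.05 before adjustment as higher and 4 as lower with limma, where 15.5% of all probe sets were (6.3% higher and 9.21% lower), and 0 passed after adjustment (0.00811% of all probe sets). The groups did not overlap in 12 of 91 sets, 9 higher and 3 lower, against 20.7% of all probe sets, 11.5% higher and 9.24% lower. The log2 fold change was above 0 in 62 of 91 sets, against 60.1% of all. The 4 lower ones were 3 of CHRNA3 and 1 of GRIA2. The 5 higher ones, all dim, were the fourth set of CHRNA3, the second set of CHRNB4, 2 sets of GRIN1 and 1 of GRIN2A, with log2 fold changes between 0.26 and 0.34. The 59 tissue-restricted genes had a median log2 fold change of 0.08, with 45 of 59 above 0. Genes below the median level were above 0 in 64.8% of cases, with a median of 0.06. These medians are smaller than the values of the 5 higher sets, and a part of low level in those values was not tested.

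The genes that supply, chaperone and scaffold these receptors were read from 7 lists with 92 members, of which 85 were measured. With limma, 0 passed after adjustment over all genes, and before adjustment 5 passed 0.05 as higher and 7 as lower (17.1% of all genes were in either direction). Adjusted p was at least 0.212 for each gene, so the values that follow did not pass. Among 7 genes of acetylcholine handling, PRIMA1, which anchors acetylcholinesterase in the membrane, was at 8.14 ± 0.10 in endosulfan and 8.50 ± 0.07 in control arrays. The vesicular acetylcholine transporter SLC18A3 was at 7.37 ± 0.15 and 7.05 ± 0.27 (endosulfan and control), and the cholinesterase BCHE at 2.65 ± 0.21 and 2.50 ± 0.05 (all SD, n = 3). Before adjustment, 0 of these 7 passed 0.05 as higher and 1, PRIMA1, as lower.

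Among 9 chaperones and modulators of nicotinic receptors, 2 passed 0.05 before adjustment as higher and 1 as lower. Of all genes, 6.64% did so as higher and 10.5% as lower. LYNX1, a membrane-tethered modulator that damps nicotinic currents, was at 7.44, 7.29 and 7.44 in endosulfan arrays against 6.55, 7.23 and 6.95 in control arrays, a log2 fold change of 0.48. Its relative LY6H was at 5.61, 5.59 and 5.71 in endosulfan arrays against 4.36, 5.47 and 5.03 in control arrays, a log2 fold change of 0.68. Both had groups that did not overlap, as did 12.4% of all genes in this direction, with control 1 the lowest array. TMEM35A (NACHO), a chaperone for the assembly of nicotinic receptors, was at 7.23, 7.72 and 7.26 in endosulfan arrays against 8.31, 7.71 and 7.70 in control arrays, a log2 fold change of -0.51. Its groups overlapped through endosulfan 2. Of the 8 other muscle subunits and clustering genes, 0 were at an unadjusted p below 0.05. LRP4, RAPSN and CHRNG, with the smallest p of these, had log2 fold changes of -0.44, 0.22 and 0.20.

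For glutamate synthesis and transport, 12 of 15 genes were measured, and before adjustment 1 passed 0.05 as higher and 0 as lower. Of all genes, 6.64% were higher and 10.5% lower at that p, the shares to set beside each count in this paragraph. The transporters SLC1A7, SLC17A6 and SLC1A1 had log2 fold changes of 0.33, 0.27 and -0.46. Of 16 delta and auxiliary subunits, 0 were at that p, and CACNG5, NETO2 and GSG1L had log2 fold changes of 0.25, -0.55 and 0.15. NETO2, an auxiliary subunit of kainate receptors, was at 6.25, 7.84 and 6.88 in endosulfan arrays against 7.79, 7.47 and 7.37 in control arrays, with endosulfan 2 the highest of the 6. Of 17 postsynaptic scaffold genes 1 was higher and 2 were lower at that p. NSF, an ATPase that binds the GRIA2 subunit, had a log2 fold change of -0.69, and the scaffolds SHANK2 and SHANK1 were at -0.55 and 0.29. Of 16 signalling genes 1 was higher and 3 were lower at that p. The calcium release channel ITPR1 was at 6.12, 6.89 and 6.33 in endosulfan arrays against 7.86, 6.99 and 7.22 in control arrays. The Gi subunit GNAI1 was at 5.51, 6.75 and 6.06 in endosulfan arrays against 7.07, 6.92 and 6.95 in control arrays. In both, every endosulfan array lay below every control array, as in 10.2% of all genes, with endosulfan 2 closest to the controls. ITPR2 had a log2 fold change of 0.38.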

How the data were processed

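Biotin-labelled cRNA from 6 RNA samples was hybridised to one-colour Affymetrix arrays, and the authors deposited 1 table of log2 values made with Affymetrix Expression Console and RMA, per the submitters' processing notes. The sources used here give no versions or options. Because RMA equalizes the distributions of the arrays, a shift shared by most transcripts is not seen. The number of arrays limits the precision. Of 49395 rows, 102 array controls were set aside and 49293 were tested. By the platform annotation 44988 probe sets named 1 gene, 1832 several and 2473 none. Each of 18132 genes was read from its brightest one-gene probe set.

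Endosulfan was compared with control in limma 3.58.1 (lmFit, eBayes, R 4.3.3), two-sided, with Benjamini-Hochberg adjustment over all genes or probe sets and a threshold of 0.05. Intervals are limma's 95% intervals. Named with all arrays by rule are subunits above the 95th percentile of tissue-restricted genes and any other with an unadjusted p below 0.05. Up to 3 genes by smallest p were named from each pathway list, some with group means or a log2 fold change only. Values of further members were added after they were seen. The members and lists were chosen with earlier results of these data known. The fit was tested on simulated data with known changes. Alternatives were the replicate block, quantile normalization, median centring, a trend with robust moderation, array weights, no moderation, a spike-in covariate, averaging the probe sets of a gene, probe sets above the median level and each array left out. Python 3.11.15 with matplotlib 3.10.9 made the figures.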

Additional observations from a re-analysis of the deposited data

Results flagged for a closer look

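The poly-A spike-in probe sets, control features that the comparison of receptor genes does not use, were higher in endosulfan arrays by 1.59 on the log2 scale, with means of 8.21 ± 0.60 in endosulfan and 6.62 ± 1.06 in control arrays (SD, n = 3 each, exact permutation p = 0.2, two-sided). Control 2, at 7.83, lay within the range of the endosulfan arrays' lower values of 7.90 and 7.82.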

How the results depend on the processing

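With the replicate number as a block (replicate block), without moderation and with the spike-in covariate, 0 genes and 0 probe sets passed, and 0 genes passed when the probe sets of a gene were averaged. Leaving out 1 array gave 0 genes and 0 to 7 probe sets. With array weights, whose estimation stopped before it converged and which rested mainly on endosulfan 3 (weight 5.46) and control 3 (4.22), 5915 genes and 7101 probe sets passed. In that setting 6 subunits passed (CHRNA3, GRIA2, GRIA3, GRIK2 and GRIN3A lower, GRIN2D higher), against 32.6% of all genes, as did 23 pathway genes, and CHRNB2 was at -0.051, the opposite sign. In every other setting 0 subunits and 0 pathway genes passed. GRIK5 was at -0.023, the opposite sign, with the spike-in covariate. When the probe sets of a gene were averaged, 1 higher and 2 lower subunits had an unadjusted p below 0.05 in limma (16.9% of all genes). With a trend and robust moderation these counts were also 1 higher and 2 lower (17.1%). The count of subunits at an unadjusted p below 0.05 was 12 of 39 with array weights (44.6% of all genes), 1 without moderation (10.4%), 0 with the spike-in covariate (1.66%), 1 of the 19 left with probe sets above the median level (20.0%), 1 to 3 with 1 array left out (8.92% to 22.6%) and 1 without control 1 and endosulfan 1 (9.35%), a setting chosen after the data were seen. The count of receptor probe sets at that p was 5 of 91 with the block (9.48% of all probe sets), 22 with array weights (32.7%), 2 with the spike-in covariate (2.08%), 2 of the 32 left above the median level (19.4%) and 2 to 7 with 1 array left out (8.86% to 19.7%). The log2 fold change of CHRNA3 was from -0.71 to -0.24 over all settings. The number of bright subunits was 1 above the highest tissue-restricted gene (TNNI3, 8.61), 10 above the median of all genes and 0 above the highest background probe set, a limit added after the data were seen. The labels do not say whether arrays of equal replicate number share a culture or day. Deviations of same-numbered arrays from their group means correlated at -0.55, -0.47 and 0.12. Deviations from a mean of 3 arrays are tied to each other, so these values cannot decide whether the arrays are paired. The causes were not tested. With 3 arrays a group, an exact permutation test cannot go below 0.1.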
